A study of Mus musculus with 4 samples.

Results

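The metalloproteinases of the infarct are 9 genes picked by symbol, Mmp2, Mmp3, Mmp9, Mmp12, Mmp13, Mmp14, Mmp19, Adam8 and Adam12, out of 21885 genes in the matrices of 4 mouse heart sections. They were picked with their levels in these sections and their fall with cardiomyocyte transcripts already in view. Their levels by section and by zone are therefore given below as a description, without a test. The assay was Visium, in which poly-adenylated RNA of a frozen 10 µm section is captured on an array of barcoded spots. Each captured molecule is counted by its unique molecular identifier (UMI). A spot can hold several cells of different types, or part of one.

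The series measured gene expression across the heart in the first days after myocardial infarction (MI). All 4 mice were Collagen1a1-GFP+ and 8 to 12 weeks old by the labels, a reporter strain in which cells that express Col1a1 carry GFP, and no section came from a mouse without the reporter. The control section came from a healthy heart, labelled female. The infarcted sections came from hearts with the left anterior descending artery tied, 1 labelled female at 3 days post infarction (dpi) and 2 at 5 dpi, replicate 1 labelled female and replicate 2 labelled male. Each heart gave 1 section, so the control and 3 dpi have 1 heart each, and no sham-operated section was analysed here. Spread between hearts could be seen only at 5 dpi (n = 2).

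The sections kept 1146 to 1741 spots and 3742105 to 9540940 non-mitochondrial UMIs each, with a median of 2976 to 5494 per spot. Mitochondrial genes took 40.1% of UMIs in the control and 13.3 to 21.4% in the infarcted sections, so levels are given as CPM (counts scaled to 1e6 non-mitochondrial UMIs). The labels of sex and the data disagreed at 5 dpi. Replicate 1, labelled female, held 704 UMIs of 4 Y-linked genes, and replicate 2, labelled male, held 1. The control and 3 dpi held 0. The 2 sections of 5 dpi are therefore called replicate 1 and replicate 2 as labelled, and no result below compares the sexes. The matrix of 5 dpi replicate 2 also held 623 spots that the authors had not marked as tissue. Those spots were left out of all zone values and are described at the end.

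Zones were drawn from the share of 12 cardiomyocyte markers in the spot's UMIs. The infarct zone (IZ) took spots whose share was under 0.5 times the 90th percentile of their section, in patches of at least 10 spots. Of the remaining spots, those within 2 steps of the IZ were border zone 2 (BZ2), those 3 to 4 steps away border zone 1 (BZ1), and the rest remote zone (RZ). Spots under the limit in smaller patches (1 in the control, then 23, 41 and 10) were put in no zone. The IZ held 882 spots at 3 dpi, 1061 in 5 dpi replicate 1 and 684 in replicate 2. No IZ was found in the control (0 spots, for a share of at most 0.321% by the exact binomial 95% limit). Spots of the IZ were deeper than those of the RZ, with medians of 5517 to 6973 against 2965 to 4348 non-mitochondrial UMIs across all sections.

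Matrix metalloproteinases (MMPs) are zinc-dependent enzymes that cut collagens, elastin, proteoglycans and many signalling proteins outside the cell. Most are secreted as inactive proenzymes, opened by other proteases and held in check by tissue inhibitors of metalloproteinases (TIMPs). ADAMs are membrane-bound relatives that carry a disintegrin domain beside the metalloproteinase domain, and some of them shed receptors and cytokines from the cell surface. In the infarcted heart these enzymes are known for the breakdown of the collagen network while leukocytes clear dead muscle, and for the remodelling of the new matrix that follows. RNA shows where the genes were transcribed, and not the amount or the activity of the enzymes.

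Of the 9 genes, Mmp2, Mmp3, Mmp9, Mmp12, Mmp13 and Mmp19 encode secreted enzymes, Mmp14 a membrane-anchored one, and Adam8 and Adam12 the ADAMs. In the RefSeq table for GRCm38.p6, Mmp9 lay on chromosome 2, Adam8 and Adam12 on 7, Mmp2 on 8, Mmp19 on 10 and Mmp14 on 14. Mmp13, Mmp12 and Mmp3 lay on chromosome 9, in a cluster with the order Mmp13, Mmp12, Mmp1b, Mmp3, Mmp1a, Mmp10, Mmp8, Mmp27, Mmp20 and Mmp7. The build behind the deposited matrices was not settled, since the labels name mm10 and the methods an Ensembl based reference. The coordinates here belong only to the RefSeq table.

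The promoter table held 6 windows for 5 of the members, each from 250 bases before to 50 after an annotated start (Mmp12 has 2 starts in it). The windows were searched on both strands for TGANTCA, a core of the binding site of the AP-1 factors, which reads the same on both strands. It was found in the windows of Mmp13, Mmp3 and 1 of the starts of Mmp12, all of the chromosome 9 cluster, and not in those of Adam8, Mmp14 or the other Mmp12 start. The 100 bases before the start are shown for those 3 windows because they place the motif in the clustered genes side by side, 5′ to 3′ on the plus strand, with the motif in capitals.
Mmp13, chr9:7272414-7272513: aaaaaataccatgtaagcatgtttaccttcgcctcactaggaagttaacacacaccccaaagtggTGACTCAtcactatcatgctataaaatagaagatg
Mmp12, chr9:7347274-7347373: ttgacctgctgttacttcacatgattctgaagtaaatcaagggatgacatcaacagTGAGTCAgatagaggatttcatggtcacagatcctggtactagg
Mmp3, chr9:7445722-7445821: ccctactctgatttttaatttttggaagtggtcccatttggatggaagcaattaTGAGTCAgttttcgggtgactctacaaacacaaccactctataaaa
The motif began 35 bases before the start in Mmp13, 44 in Mmp12 and 46 in Mmp3. Among all 32851 windows of the table, 2565 (7.81%) held it anywhere and 437 (1.33%) within the last 50 bases before the start. A match is a string of letters in the reference, and binding was not measured.

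Secreted enzymes come first, beginning with the gelatinases Mmp2 and Mmp9, which cut denatured collagen and basement membrane collagen. Mmp2, made mainly by fibroblasts and other stromal cells, was already well detected in the healthy heart, with 331 UMIs. Its level over all kept spots was 88.5 CPM in the control, 91.8 at 3 dpi, 363 in 5 dpi replicate 1 and 244 in replicate 2. The control and 3 dpi did not differ beyond counting error (ratio 1.04, 95% interval 0.911 to 1.18), while the sections of 5 dpi were 4.11-fold (3.67 to 4.61) and 2.76-fold (2.45 to 3.11) above the control. Here and below, such intervals are exact Poisson intervals that cover counting error only, and not the spread between hearts.

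The zones of Mmp2 also differed between the times. At 3 dpi it read 92.2 CPM in the IZ and 92.6 in the RZ (ratio 0.995, 0.814 to 1.22), with 81.4 in BZ1 and 96.4 in BZ2. Its level at 3 dpi was thus flat over the section, and the name infarct metalloproteinase was not borne out by Mmp2 at that time. At 5 dpi it was graded toward the infarct, from 117 CPM in the RZ through 241 in BZ1 and 314 in BZ2 to 399 in the IZ of replicate 1. Replicate 2 read 77.4, 131, 270.4 and 338 CPM in the same order. The RZ level was 1.05 times (0.844 to 1.29) the control at 3 dpi, 1.32 times (1.04 to 1.66) in 5 dpi replicate 1 and 0.874 times (0.728 to 1.05) in replicate 2. In bulk spots, fewer cells of a type and less RNA per cell cannot be told apart.

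Mmp9, the gelatinase stored in the granules of neutrophils, was nearly missing from the control, with 2 UMIs (0.53 CPM). It read 18.0 CPM at 3 dpi, 16.5 in 5 dpi replicate 1 and 7.22 in replicate 2, with 3 dpi and replicate 1 close together and replicate 2 lower. In the IZ it read 25.6, 20.5 and 12.0 CPM in that order, against 5.27 in the RZ of 3 dpi and 1 and 2 UMIs in the RZ of the replicates of 5 dpi. The 3 dpi ratio of IZ over RZ was 4.87 (2.30 to 12.4). From 3 dpi to 5 dpi the IZ level was 0.798 times (0.627 to 1.02) in replicate 1 and 0.467 times (0.337 to 0.642) in replicate 2.

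**Figure D1:**
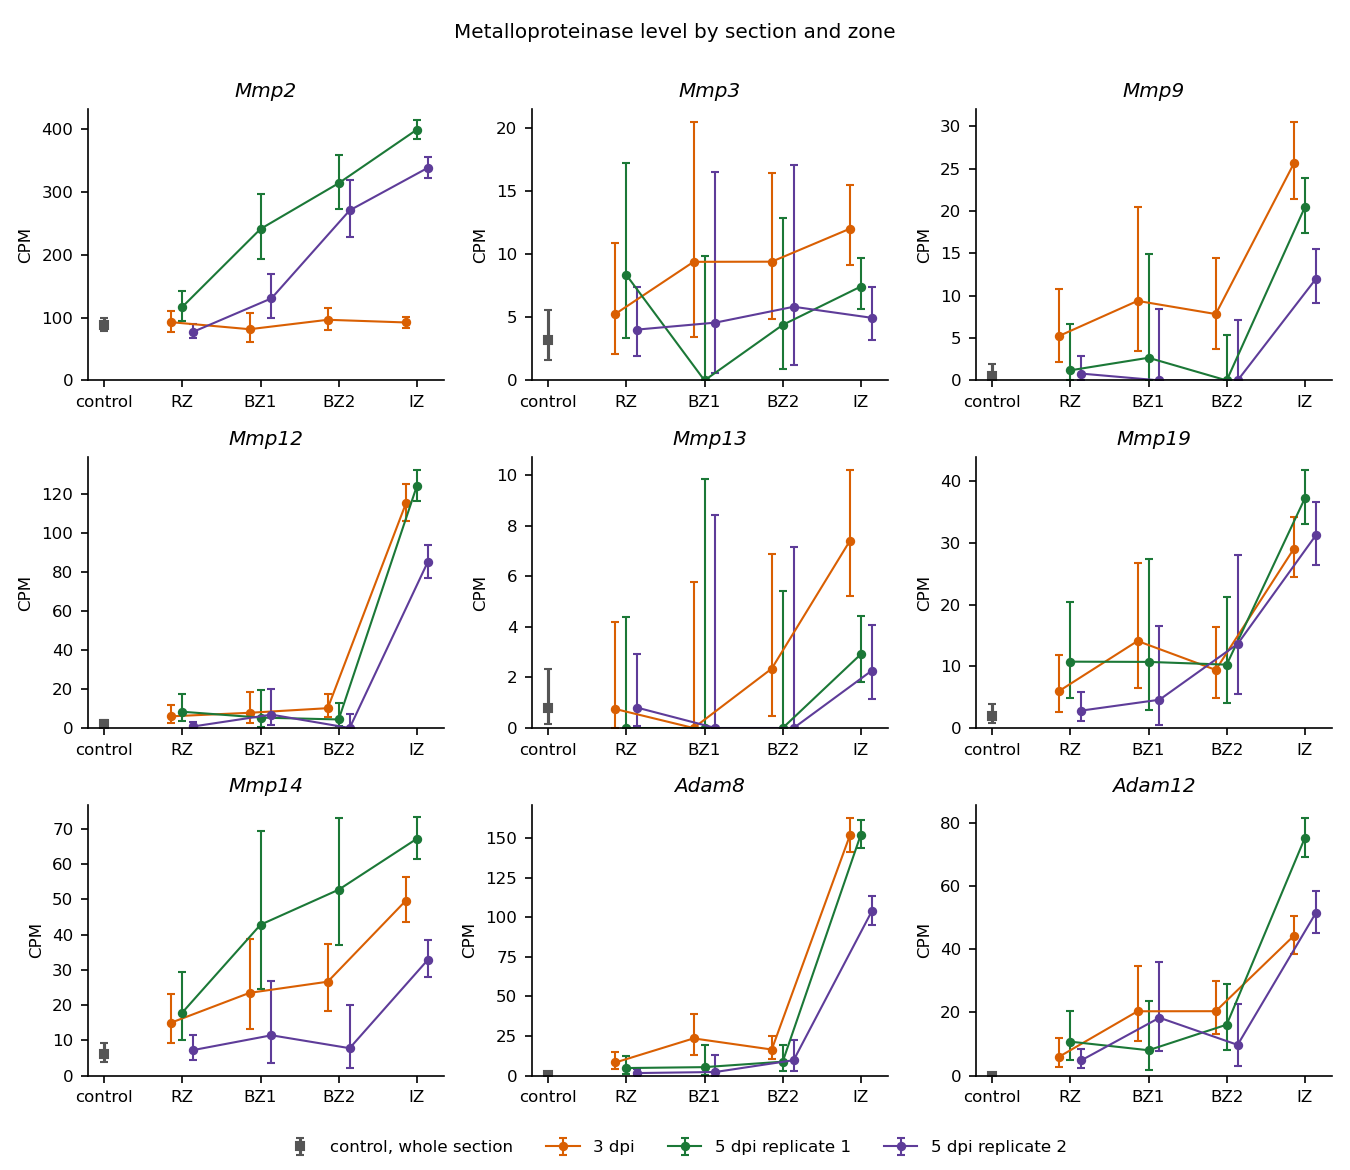
Level of each member in CPM of non-mitochondrial UMIs (vertical axis, a scale per gene) in the control section and in the zones RZ, BZ1, BZ2 and IZ of each infarcted section. Bars are 95% exact Poisson intervals, counting error only. Mmp2 was flat at 3 dpi (92.6 CPM in the RZ, 92.2 in the IZ) and graded at 5 dpi (117 to 399 in replicate 1), while Mmp12 and Adam8 were far lower in the border zones than in the IZ.

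The stromelysin Mmp3, which cuts proteoglycans and opens other MMP proenzymes, was scarce in every section. It read 3.21 CPM in the control, 10.3 at 3 dpi, 7.02 in 5 dpi replicate 1 and 4.69 in replicate 2. In the IZ it read 12.0 CPM against 5.27 in the RZ at 3 dpi (2.28-fold, 1.04 to 5.92), but 7.44 against 8.36 in 5 dpi replicate 1 and 4.96 against 4.03 in replicate 2. At 5 dpi the infarct and remote levels of Mmp3 could not be separated at this depth, and the intervals of the ratios overlapped between the times.

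Mmp12, the macrophage elastase, was low outside the IZ. The control held 8 UMIs (2.14 CPM), and the infarcted sections read 72.4 CPM at 3 dpi, 99.8 in 5 dpi replicate 1 and 50.3 in replicate 2. In the IZ it read 115, 124 and 85.4 CPM in that order, against 6.02, 8.36 and 0.81 in the RZ (the last from 2 UMIs). The border zones were far below the IZ, with 7.83 CPM in BZ1 and 10.2 in BZ2 at 3 dpi, 5.35 and 4.40 in 5 dpi replicate 1, and 6.87 and 0 in replicate 2. The ratio of IZ over RZ was 19.2 (9.66 to 44.6) at 3 dpi and 14.9 (7.19 to 37.1) in 5 dpi replicate 1. In replicate 2 it was 105.9 (29.1 to 878), on a base of 2 UMIs.

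Mmp13, the main collagenase of rodents, gave few UMIs. There were 3 UMIs in the control, 42 at 3 dpi, 23 in 5 dpi replicate 1 and 13 in replicate 2. Of these, 37, 22 and 11 lay in the IZ, against 1, 0 and 2 in the RZ. The IZ level was 7.41 CPM at 3 dpi, 2.92 in 5 dpi replicate 1 (0.394 times, 0.222 to 0.686) and 2.27 in replicate 2 (0.307 times, 0.141 to 0.614). Mmp13, Mmp3 and Mmp9 were thus the members whose infarct level was lower in both replicates of 5 dpi than at 3 dpi, with 1 heart at 3 dpi and, for Mmp9, an interval that reached past 1 in replicate 1.

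Mmp19, a secreted enzyme that cuts basement membrane proteins, had 7 UMIs in the control (1.87 CPM) and read 21.0 CPM at 3 dpi, 31.5 in 5 dpi replicate 1 and 20.3 in replicate 2. Its IZ levels of 29.1, 37.2 and 31.2 CPM lay closer together than those of other members, and exceeded the RZ levels of 6.02, 10.7 and 2.82. The 5 dpi mean in the IZ was 34.2 ± 4.24 CPM (SD, n = 2).

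Mmp14, the membrane-anchored collagenase that also opens the Mmp2 proenzyme, read 6.15 CPM in the control (23 UMIs), 38.3 at 3 dpi, 61.5 in 5 dpi replicate 1 and 22.5 in replicate 2. The replicates of 5 dpi lay on either side of 3 dpi. In the IZ it read 49.7 CPM at 3 dpi, 67.2 in 5 dpi replicate 1 and 32.9 in replicate 2, so that its 5 dpi mean of 50.05 ± 24.3 CPM (SD, n = 2) had the widest relative spread of the members. Its remote levels of 15.1, 17.9 and 7.25 CPM were 2.45-fold (1.28 to 4.66), 2.91-fold (1.41 to 5.83) and 1.18-fold the control. Mmp14 and Mmp2 followed different courses, since Mmp14 was already 3.30-fold higher in the IZ than in the RZ at 3 dpi.

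Adam8, an ADAM of leukocytes, was nearly missing from the control. It gave 1 UMI there (0.27 CPM), and the infarcted sections read 96.1 CPM at 3 dpi, 122 in 5 dpi replicate 1 and 61.6 in replicate 2. The 3 dpi ratio over the control was 359.7 with a counting interval of 64.4 to 14225, since its base is a single molecule. In the IZ it read 152, 152 and 104 CPM against 8.28, 4.78 and 1.61 in the RZ. The border zones read 23.5 in BZ1 and 16.5 in BZ2 at 3 dpi, and 2.29 to 9.73 at 5 dpi. Of all Adam8 UMIs, 94.0% lay in the IZ at 3 dpi, 98.5% in 5 dpi replicate 1 and 98.0% in replicate 2, while the IZ held 59.6%, 78.9% and 58.2% of the UMIs of all genes.

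Adam12, an ADAM of activated mesenchymal cells, was not detected in the control, where a count of 0 allows up to 0.802 CPM (3 counts over the section). It read 32.6 CPM at 3 dpi, 62.5 in 5 dpi replicate 1 and 33.0 in replicate 2, which is at least 40.7-fold, 77.9-fold and 41.1-fold higher than that floor, with the infarct counts taken as measured. With counting error on both sides the lower 95% limits were 32.8, 63.2 and 33.2. In the IZ it read 44.3, 75.2 and 51.5 CPM against 6.02, 10.7 and 4.83 in the RZ. The IZ level of replicate 1 was 1.70 times (1.45 to 1.99) that of 3 dpi, and that of replicate 2 was 1.16 times (0.966 to 1.40).

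Across the members the IZ exceeded the RZ in 25 of 27 pairs of gene and section, the exceptions being Mmp2 at 3 dpi and Mmp3 in 5 dpi replicate 1. Among all 9444 genes tested between these zones, 26.8% were higher in the IZ and 53.8% differed in either direction, and nothing is read from the members' count because the choice of members used this contrast. From 3 dpi to 5 dpi, Mmp2 had the largest ratios of the IZ level, 4.33 (3.92 to 4.78) in replicate 1 and 3.67 (3.31 to 4.08) in replicate 2. Mmp12, Adam8 and Mmp14 were at or above the 3 dpi level in replicate 1 and below it in replicate 2. Their ratios were 1.08 and 0.740 for Mmp12, 1.003 and 0.684 for Adam8, and 1.35 and 0.661 for Mmp14, so no course over time holds for these across the 2 hearts.

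The share of cardiomyocyte transcripts, given as a fraction of the 90th percentile of the section, set the members apart further. Adam8 at 3 dpi read 341 CPM in spots with a fraction under 0.05, then 209, 106 and 50.1 in the bins up to 0.1, 0.25 and 0.5, and 16.9 and 12.5 in the bins above. The 5 dpi replicates read 216 in the first and 7.003 in the last of these bins, and 149 and 1.75 CPM. Mmp12 read 226 and 5.11 CPM at 3 dpi. Just inside the limit of the IZ (0.25 to 0.5) and just outside it (0.5 to 0.75), Adam8 read 50.1 and 16.9 CPM at 3 dpi, 19.5 and 5.33 in 5 dpi replicate 1, and 11.9 and 5.23 in replicate 2.

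Mmp2 did not follow that order. At 3 dpi it lay between 85.7 and 97.2 CPM in all bins. In 5 dpi replicate 2 it was higher in spots with 0.05 to 0.5 of the cardiomyocyte level (397 to 441 CPM) than in those with less (284 CPM), and just outside the IZ limit it still read 185 CPM. In replicate 1 it peaked at 499.6 CPM in the bin from 0.1 to 0.25. Its highest levels thus lay in spots that kept some muscle transcripts, and those of Adam8 and Mmp12 in spots with the least.

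Distance to the edge of the IZ showed the same split in where the members lay. From spots 1 to 2 steps inside the edge, through 3 to 4 steps, to 5 or more, Mmp12 read 81.8, 108 and 157 CPM at 3 dpi, 18.5, 82.4 and 154 in 5 dpi replicate 1, and 5.71, 35.2 and 101 in replicate 2. Mmp9 read 5.02, 18.0 and 52.9 CPM at 3 dpi, 2.64, 10.7 and 25.8 in replicate 1, and 1.90, 8.11 and 13.7 in replicate 2. Mmp2 ran the other way at 5 dpi, with 448, 449.7 and 380.0 CPM in replicate 1 and 534, 454 and 301 in replicate 2. Adam12 read 19.0 CPM near the edge and 58.3 in the deepest spots of replicate 2.

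**Figure D2:**
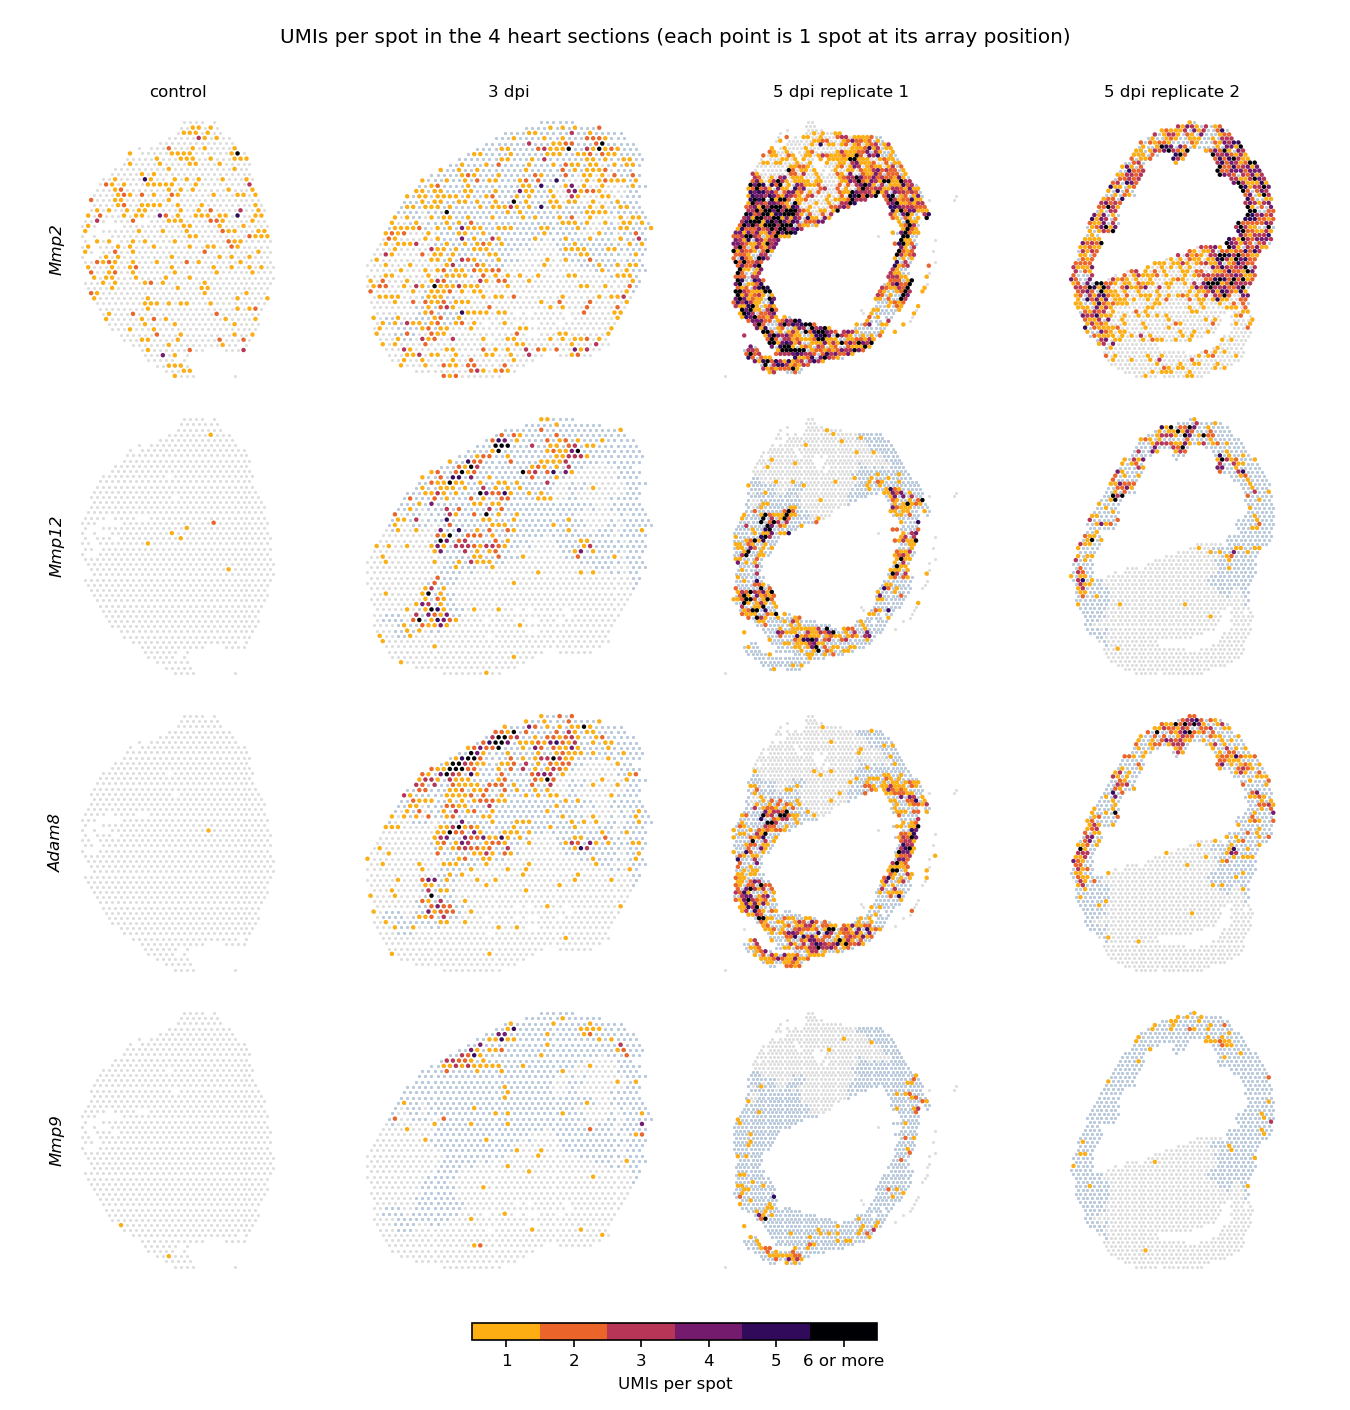
UMIs per spot of Mmp2, Mmp12, Adam8 and Mmp9 in the 4 sections, each point a spot at its array position; pale blue points are IZ spots without a UMI, grey points other kept spots without one, and colours run from 1 to 6 or more UMIs. Mmp2 covers the whole infarct of the 5 dpi sections, Mmp12 and Adam8 gather in patches inside it, and Mmp9 in a few small groups of spots, with 2 UMIs in the control.

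Within the IZ the UMIs of some members were bunched in few spots. The variance over IZ spots was 2.23, 3.74 and 2.94 times the mean for Mmp12 at 3 dpi and in the replicates of 5 dpi, with up to 22 UMIs in a spot. For Adam8 the ratio was 1.84, 1.92 and 1.62, and for Mmp2 it was 1.40, 1.81 and 1.82, near that of Adam8 at 5 dpi. For Mmp19 it was 1.12, 1.08 and 0.994, close to the value of 1 that even sampling would give. Mmp9 reached 13 UMIs in 1 spot of 5 dpi replicate 1, where its variance was 2.29 times its mean.

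Shares of spots depend on depth, so each spot was thinned to 1534 non-mitochondrial UMIs. This left out 115 spots of the control, 226 at 3 dpi, 93 in 5 dpi replicate 1 and 28 in replicate 2. Mmp2 was then seen in 12.7% of control spots and in 11.7%, 45.4% and 41.3% of IZ spots at 3 dpi and in the replicates of 5 dpi. Before thinning these shares were 23.2%, 36.8%, 83.6% and 82.9%, so the apparent excess at 3 dpi was gone at equal depth. Adam8 was seen in 19.0%, 20.1% and 12.4% of IZ spots (41.9%, 49.4% and 38.7% unthinned). Mmp12 in the RZ of replicate 2 was seen in 0 of 517 thinned spots, for a share of at most 0.711% by the same exact limit. That limit holds for detection at this depth only, and unthinned 2 of 533 spots held a UMI.

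Tests of the members were made only inside the IZ, on splits other than the cardiomyocyte share that the choice of members had used. Bins of that share, described next, did not hold it fully equal between the sides. The splits are therefore not fully independent of the choice. In each section IZ spots were put in 5 bins of cardiomyocyte share, and within each bin the spots richer in a marker list were set against the poorer ones. Counts were summed per section and side, and the 6 sums were compared with edgeR's quasi-likelihood test with the section as a block and Benjamini-Hochberg adjustment over all genes. The replicates are hearts (n = 3, of which 1 at 3 dpi). With so few sums, each p rests on the spread among hearts together with a dispersion shared over all genes. A small p is therefore no measure of evenness among the 3 hearts alone.

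Macrophage-rich spots held more Adam8 and Mmp12 and less Mmp14 and Mmp2. Adam8 read 196 CPM in macrophage-rich and 111 in macrophage-poor spots at 3 dpi, 183 and 117 in 5 dpi replicate 1, and 122 and 83.7 in replicate 2. Its log2 fold change was 0.69 (SE 0.08, edgeR adjusted p = 1.55e-08). Mmp12 read 134 and 98.8, 157 and 86.5, and 98.5 and 70.0 CPM, a log2 fold change of 0.64 (SE 0.09, edgeR adjusted p = 1.15e-06). Both were higher on the macrophage-rich side in all 3 sections.

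Mmp14 fell by 0.35 on the log2 scale in macrophage-rich spots (SE 0.10, edgeR adjusted p = 0.017), from 55.0 to 43.7 CPM at 3 dpi, 78.8 to 57.3 in 5 dpi replicate 1 and 35.2 to 30.7 in replicate 2. Mmp2 fell by 0.23 (SE 0.07, edgeR adjusted p = 0.0258), from 96.5 to 87.4, 449 to 355 and 366 to 316 CPM. Both calls were lost without the 3 dpi section (log2 −0.35 for Mmp14 and −0.24 for Mmp2) and without 5 dpi replicate 1 (−0.26 and −0.16), and with DESeq2 (−0.34 and −0.24). In all, 4 of the 8 members tested were called, 2 in each direction, where 13.3% of all 10939 genes were called (7.4% higher, 5.91% lower). Mmp19 (0.28), Adam12 (−0.20), Mmp3 (−0.41) and Mmp9 (0.03) did not pass the threshold, and Mmp13 had too few UMIs to be tested.

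The macrophage list itself summed to 9892 to 13913 CPM on the rich side and 4263 to 6534 on the poor side, with 8 of 8 markers higher. Other cell types moved with it. In spite of the bins, 11 of 12 cardiomyocyte markers were lower in macrophage-rich spots (0.522 to 1.79% of UMIs against 0.845 to 2.29%), as were Col1a1, Col1a2, Cthrc1, Acta2 and Lox among the fibroblast genes, while Dcn, Lum and Ptn were higher. Both tested lymphocyte markers (Cd79a, Nkg7, of 5) and Csf3r of the neutrophil list (1 of 3 tested) were higher, and Egfl7 and Emcn (2 of 6 endothelial markers) were lower. Of the macrophage subset genes, 6 of 6 of the C1q list and 5 of 6 of the Spp1 list were higher. Their part in the members' differences was not tested.

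Fibroblast-rich spots gave the opposite picture for 3 of these genes and brought in Adam12. Mmp2 read 113 CPM in fibroblast-rich and 70.6 in fibroblast-poor spots at 3 dpi, 520.0 and 287 in 5 dpi replicate 1, and 434 and 255 in replicate 2. That is a log2 fold change of 0.78 (SE 0.06, edgeR adjusted p = 4.61e-07). Adam12 read 55.4 and 32.8, 90.9 and 60.7, and 60.5 and 43.4 CPM, a log2 fold change of 0.59 (SE 0.10, edgeR adjusted p = 0.00124). Both were higher in all 3 sections, so the difference in Mmp2 was present at 3 dpi even though its total level there matched the control.

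Adam8 fell by 0.62 on the log2 scale in fibroblast-rich spots (SE 0.07, edgeR adjusted p = 4.46e-05), from 182 to 123 CPM at 3 dpi, 179 to 122 in 5 dpi replicate 1 and 127 to 73.8 in replicate 2. Mmp12 fell by 0.89 (SE 0.13, edgeR adjusted p = 0.000347), from 131 to 101, 162 to 84.0 and 123 to 43.1 CPM. Thus 4 of the 9 members, all tested here, were called, against 4.3% of all 10940 genes (2.89% higher, 1.41% lower). Without 5 dpi replicate 1 the calls of Mmp12 (log2 −0.85) and Adam12 (0.61) were lost, and DESeq2 did not call Mmp12 (−0.94). Without replicate 2 Mmp9 passed (−0.74). In the full fit Mmp9 (−0.54), Mmp13 (−0.85), Mmp19 (0.26), Mmp3 (0.11) and Mmp14 (0.09) did not pass.

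On this split the fibroblast list summed to 14712 to 27247 CPM on the rich side and 7358 to 15300 on the poor side, with 6 of 6 markers and 7 of 7 activated fibroblast genes higher. Of the Spp1 macrophage genes, Spp1, Gpnmb, Fabp5 and Lgals3 (4 of 6) were lower, as were Cd68 and Ctss of the 8 macrophage markers and 6 of 12 cardiomyocyte markers, while 0 of 6 C1q macrophage genes passed in either direction. Their part was not tested.

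Neutrophil-rich spots held more Mmp9, which read 40.9 CPM against 10.8 at 3 dpi, 24.6 against 16.1 in 5 dpi replicate 1 and 19.9 against 3.82 in replicate 2. The log2 fold change was 1.33 (SE 0.21, edgeR adjusted p = 0.000155). Mmp2 fell by 0.23 (SE 0.05, edgeR adjusted p = 0.0212), from 101 to 84.2, 431 to 369 and 364 to 313 CPM. These were the 2 members called of 8 tested, where 0.834% of all 10915 genes were called. The call of Mmp9 was lost without the 3 dpi section (log2 1.02) and with DESeq2 (1.58), and that of Mmp2 without the 3 dpi section (−0.22), without 5 dpi replicate 1 (−0.23) and with DESeq2 (−0.23).

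The neutrophil list is thin in these sections. It summed to 419 to 484 CPM in neutrophil-rich and 23.3 to 31.2 in neutrophil-poor spots, and 4 of its 6 genes (S100a8, S100a9, Retnlg, Csf3r) could be tested and were higher. Ly6g, a defining marker of mouse neutrophils, was at 0 in the IZ at 3 dpi and in 5 dpi replicate 2. Cd68, Gpnmb, Lgals3 and C1qb of the macrophage lists were lower on the neutrophil-rich side, and no gene of those lists was higher. Of the fibroblast genes, Lum (1 of 6) and the activated fibroblast genes Postn, Cthrc1, Ptn and Ddah1 (4 of 7) were lower too, and Tnnt2 and Pln (2 of 12 cardiomyocyte markers) were higher. Their part in the lower Mmp2 was not tested.

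Deep spots, those farther from the edge than others in the same bin of cardiomyocyte share, gave no member past the threshold with edgeR. DESeq2 called none either, but gave an adjusted p to 2046 genes and to Mmp2, Mmp12 and Adam8 alone among the members. At an unadjusted p under 0.05 there were 4 members and 947 of the 11013 genes, of which 10 (0.0908%) passed after adjustment (0.0182% higher, 0.0726% lower). Adam8 (log2 0.30, edgeR adjusted p = 0.273), Mmp12 (0.35, 0.295), Mmp9 (0.78, 0.492) and Mmp14 (0.45, 0.528) were the 4. Without 5 dpi replicate 1, Mmp9 passed with a log2 fold change of 1.65. From shallow to deep spots the neutrophil list summed to 183 and 350 CPM at 3 dpi and 153 and 291 in 5 dpi replicate 2, the sections then left, but to 284 and 209 in replicate 1. Its part was not tested. Among spots in the same bins of cardiomyocyte share, the inward differences of Mmp12 and Adam8 thus did not pass the test.

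An interaction term for the difference between 3 dpi and 5 dpi was added after the data were seen. It has 1 heart at 3 dpi and 1 residual degree of freedom, so its p rests on the shared dispersion and not on the spread between hearts, and no change over time is read from it. It called 0.0366% of all genes on the macrophage split, 0.402% on the fibroblast split, 0.0183% on the neutrophil split and 0.4% among deep spots. The members among these were Mmp12 on the fibroblast split and Mmp9 and Mmp14 among deep spots.

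**Figure D3:**
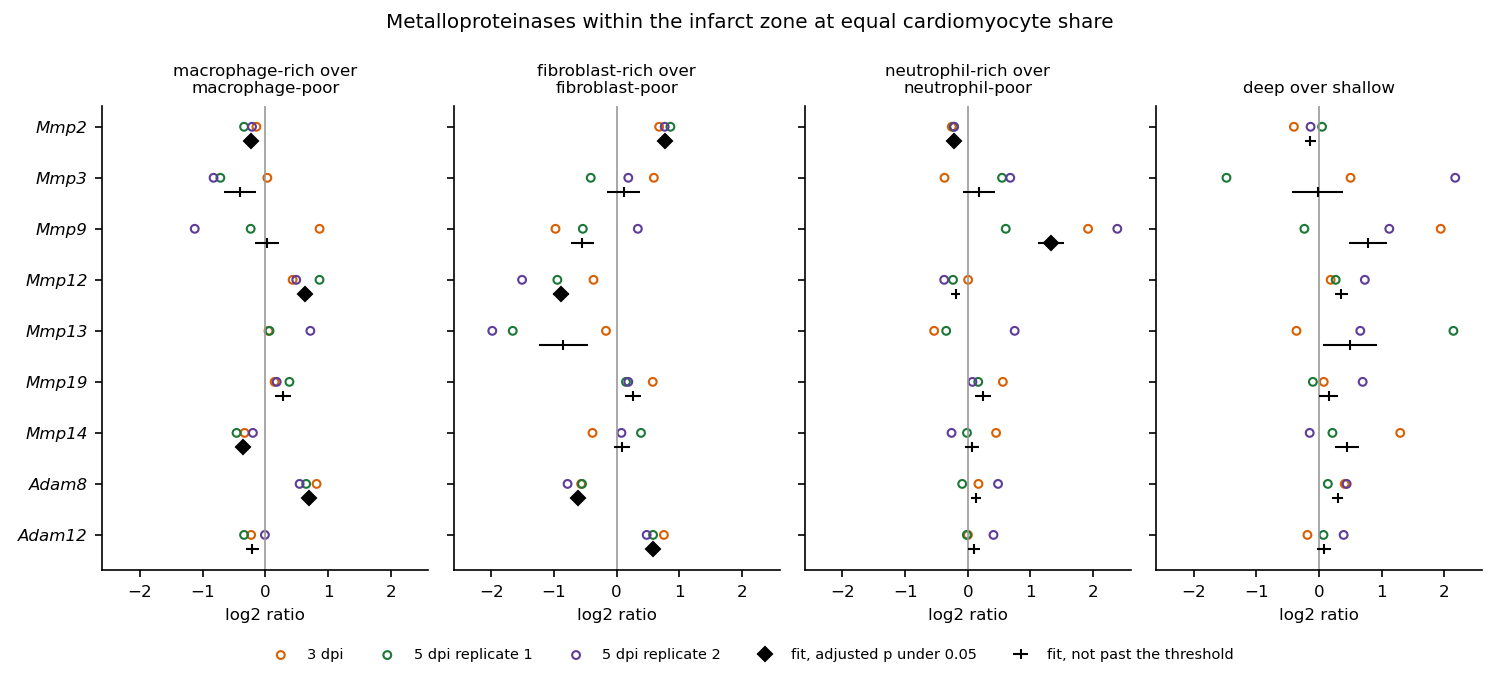
Log2 fold change of each tested member on the 4 splits of IZ spots (macrophage-rich, fibroblast-rich, neutrophil-rich and deep, each over its counterpart). Open circles are the 3 sections' own log2 ratios of CPM, black points the edgeR estimate with its standard error, and diamonds mark an adjusted p under 0.05. Adam8 and Mmp12 lie above 0 for macrophages (0.69 and 0.64) and below 0 for fibroblasts (−0.62 and −0.89), and Mmp2 lies the other way (−0.23 and 0.78).

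All 10 calls on the first 3 splits rest on the pairing of both sides within a section, since none passed without the section as a block. The edgeR adjusted p over the alternatives ran from 8.99e-15 to 0.290 for Adam8 and from 3.15e-11 to 0.359 for Mmp12 on the macrophage split.

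Over IZ spots, with each spot summed with its adjacent IZ spots, the genes whose log2(CPM + 1) pattern was most like each member were ranked by the mean Pearson r over the 3 infarcted sections. Only the 6 members with at least 20 CPM in every IZ were ranked, among 5701 genes, and the median r of all pairs of a member with a gene was 0.086. The spots of a section share a library and differ in depth, and the sums of adjacent spots overlap, so r is a description. Mmp12 was nearest to Spp1 (0.65), Fabp5 (0.64), Ftl1 (0.63), Lgals3 (0.62) and Ctsb (0.60). Adam8 was nearest to Spp1 (0.64), Ftl1 (0.64), Fth1 (0.61), Ctsl (0.60) and Psap (0.59). Spp1 encodes the matrix protein osteopontin, Ftl1 and Fth1 the chains of ferritin, and Ctsb and Ctsl lysosomal cathepsins.

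Mmp2 was nearest to Sparc (0.38), Mfap4 (0.36), Bgn (0.33), Postn (0.33) and Ltbp4 (0.32), which all encode proteins of the extracellular matrix. Adam12 was nearest to Actg1 (0.38), Ccl9 (0.36), Bcat1 (0.32), Pf4 (0.31) and Tmsb4x (0.31), none of which is on the fibroblast lists used here. Its list and that of Mmp19 shared Pf4 and Ccl9, with Pf4 (0.31) leading for Mmp19. Between members, Mmp12 and Adam8 gave r = 0.48, while Mmp2 and Mmp12 gave 0.02 at 3 dpi, −0.23 in 5 dpi replicate 1 and −0.50 in replicate 2. Adam12 gave a mean r of 0.25 with Adam8, 0.24 with Mmp19, 0.20 with Mmp12 and 0.15 with Mmp14, but −0.01 with Mmp2. By this measure Adam12 thus did not pair with Mmp2, although both were higher in fibroblast-rich spots.

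The other genes of the family did not all follow the infarct. IZ and RZ were compared by edgeR's quasi-likelihood test on 12 sums per zone and section with the section as a block. Of 46 other MMP, ADAM and ADAMTS genes, 18 had enough UMIs to be tested, of which 11 were higher in the IZ, 2 were lower and 5 did not pass, beside 26.8% higher and 27% lower among all genes tested. The IZ held more UMIs than the RZ, so a gene scarce in the RZ could meet the count filter through the IZ, and the 2 directions had no equal chance to be counted. The scaling of the fit (TMM) shifted the log2 fold changes by −0.42 on average against the log2 ratios of CPM. After it, the median log2 fold change of all genes tested was 0.05. The zones were drawn on 12 cardiomyocyte markers, none of which is in these lists.

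Among 16 other MMPs, 3 were tested. Mmp15, a membrane-anchored relative of Mmp14, was lower in the infarct, with 82.0 CPM in the RZ and 35.3 in the IZ at 3 dpi, 72.8 and 13.8 in 5 dpi replicate 1, and 59.6 and 21.7 in replicate 2. Its log2 fold change was −2.06 (SE 0.22, edgeR adjusted p = 1.08e-07), and its control level was 90.3 CPM. Mmp11 (log2 1.40) and Mmp23 (1.51) were higher, with Mmp23 at 45.2 and 89.6 CPM in the RZ and IZ of 3 dpi, 51.3 and 184 in 5 dpi replicate 1, and 29.0 and 199 in replicate 2.

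Of the neighbours of Mmp13, Mmp12 and Mmp3 on chromosome 9, Mmp8 and Mmp27 gave few UMIs but read higher in the IZ than in the RZ. Neither had enough UMIs for the test between zones. Mmp8, the neutrophil collagenase, gave 0 UMIs in the control, 54 at 3 dpi, 47 in 5 dpi replicate 1 and 28 in replicate 2. It read 10.2, 6.11 and 5.37 CPM in the IZ of these infarcted sections, against 1.51, 0 and 0.81 in the RZ. Inside the IZ, Mmp8 and Mmp27 were called higher in macrophage-rich spots (2 of 6 other MMPs tested, where 7.4% of all genes were higher). On the neutrophil split 0 of 6 other MMPs tested were called. Mmp27 gave 0, 21, 29 and 19 UMIs, and read 4.01, 3.85 and 3.72 CPM in the IZ against 0 in each RZ. Mmp10 gave 0, 0, 3 and 2 UMIs. Mmp1a, Mmp1b, Mmp7 and Mmp20 were at 0 UMIs in all 4 sections.

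Of 11 other ADAMs, 5 were tested and all 5 were higher in the IZ, with log2 fold changes of 1.05 for Adam9, 0.89 for Adam10, 0.87 for Adam17, 0.55 for Adam19 and 0.38 for Adam15. Adam10 and Adam17 are the main sheddases of the cell surface. All 5 were detected in the control, at 17.4 to 44.6 CPM. Of 19 ADAMTS genes, 10 were tested. Adamts4 (1.95), Adamts12 (1.82), Adamts2 (1.44) and Adamts10 (1.06) were higher, Adamts15 was lower (−1.91) and 5 did not pass. Adamts2, the procollagen N-proteinase, read 170, 345 and 371 CPM in the IZ of 3 dpi and the replicates of 5 dpi, against 79.0, 97.9 and 64.5 in the RZ.

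Among 6 inhibitors, 3 were tested. Timp1 read 4.81 CPM in the control and 2037, 1953 and 2075 CPM in the IZ of 3 dpi and the replicates of 5 dpi, against 233, 339 and 251 in the RZ (log2 2.49 between zones, edgeR adjusted p = 4.50e-11). Timp2, which takes part in the activation of Mmp2 by Mmp14, was higher by 1.02, and Timp3 (0.35) did not pass. Timp4, too low to be tested, ran the other way, with 60.1 CPM in the control and 13.5, 8.36 and 9.27 in the RZ of 3 dpi and the replicates of 5 dpi against 0.60, 0.13 and 0.62 in the IZ. Inside the IZ, Timp1 was lower and Timp2 higher in macrophage-rich spots.

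Of 9 activators, 5 were tested. Plaur, the receptor of urokinase, was higher in the IZ (1.61), and Bsg, an inducer of MMPs also known as EMMPRIN, was lower (−1.07). Of 12 matrix substrates, all tested, 7 were higher: Spp1 (5.82), Fn1 (3.19), Col1a2 (2.71), Col1a1 (2.69), Tnc (2.14), Col3a1 (1.91) and Vcan (0.70). Lama2, a laminin chain of the basement membrane of muscle, was called lower (−0.73), but the sections differed in direction. Its level in the RZ and IZ was 63.2 and 37.1 CPM at 3 dpi and 90.7 and 56.5 in 5 dpi replicate 1. In replicate 2 Lama2 was higher in the IZ, at 69.0 CPM against 52.4. On the fibroblast split 9 of 12 substrates were higher, 3 of which (Col1a1, Col1a2, Col3a1) had been used to split the spots, and Spp1 was lower.

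The 623 spots of 5 dpi replicate 2 outside the marked tissue carried UMIs of all 9 members. Over all of them Mmp12 was 0.668 times (0.543 to 0.816) and Mmp2 0.728 times (0.660 to 0.803) the level of the marked IZ. Mmp19 (2.04), Mmp9 (1.72), Mmp14 (1.68) and Adam12 (1.27) were above it, and Adam8 (1.02, 0.874 to 1.20), Mmp3 and Mmp13 did not differ beyond counting error. The spots fell mainly into patches of 319, 174 and 50 spots. The largest patch was shallow (median 958 non-mitochondrial UMIs) and nearly free of cardiomyocyte transcripts (0.297%). In it Mmp19 read 169.8 CPM against 31.2 in the marked IZ of the same section (5.44-fold, 4.23 to 6.97). Mmp9 read 43.9 (3.66-fold, 2.27 to 5.79), Adam12 130.2 (2.53-fold, 1.96 to 3.24) and Adam8 198 (1.90-fold, 1.56 to 2.31). Mmp2 (331 CPM, 0.978 times, 0.847 to 1.12) and Mmp12 (68.8 CPM, 0.806 times, 0.583 to 1.09) did not differ from the IZ beyond counting error.

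The patch of 174 spots had a median of 5993 UMIs. There Mmp14 read 74.4 CPM (2.26-fold the marked IZ, 1.71 to 2.97), Mmp2 was lower (215 CPM, 0.636 times), and so were Adam8 (0.787 times, 0.621 to 0.986) and Mmp12 (0.765 times, 0.587 to 0.985). Mmp19 read 23.6 CPM (0.756 times, 0.478 to 1.15). The beta-globin gene Hbb-bs, a sign of red blood cells, was 8.24-fold above the IZ in this patch. The macrophage list summed to 4893 CPM against 9980 in the marked IZ, and the fibroblast list to 13892 against 18849, while in the patch of 319 spots they summed to 9177 and 23413. Their part in the members' levels was not tested. In the patch of 50 spots cardiomyocyte markers took 8.46% of UMIs and 6 members were at 0. A count of 0 there allows up to 15.4 CPM (3 counts over the patch), which is above the marked IZ level of Mmp13 (2.27 CPM). What tissue these spots lay over was not tested, and they come from 1 heart.

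**Figure D4:**
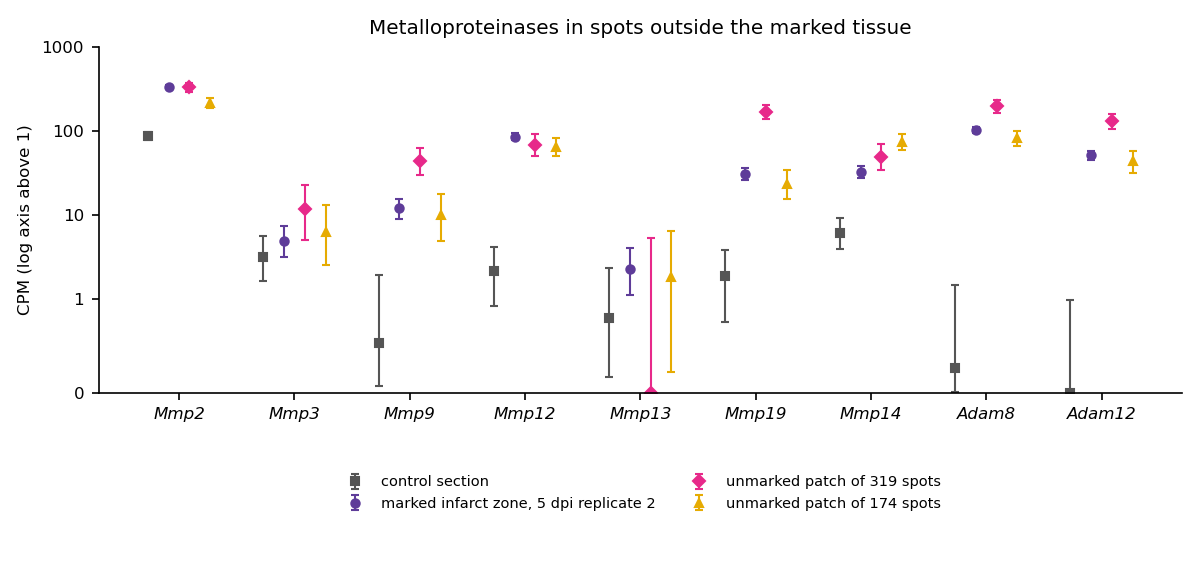
Level of each member in CPM (log axis) in the control section, in the marked IZ of 5 dpi replicate 2 and in the 319-spot and 174-spot patches outside its marked tissue, with 95% exact Poisson intervals, counting error only. Mmp19 stands at 169.8 CPM in the larger patch against 31.2 in the marked IZ, and Mmp14 at 74.4 in the smaller patch against 32.9.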

How the data were processed

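Visium libraries of 4 heart sections were analysed. The deposited values are UMI counts of each gene in each spot, which the authors made with Space Ranger 1.3.1 and no further normalisation, and spots under tissue were picked by hand in Loupe Browser by the authors. The submitters' processing notes name mm10. Reads were not reanalysed. Spots marked as tissue with at least 500 UMIs, 250 genes and at most 50% mitochondrial UMIs were kept. CPM was computed over non-mitochondrial UMIs, with exact 95% Poisson intervals; intervals and the floor of 3 counts cover counting error only. Capture from the 3′ end counts molecules, so CPM was not divided by length and CPM of different genes should not be read as relative amounts.

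Zones were rebuilt from marker counts as described above, and so need not match zones drawn by the authors. Splits within the IZ ordered spots by the summed share of a marker list or by steps to the nearest spot outside, in 5 bins of cardiomyocyte share, with ties broken at random (seed 7). Summed counts were tested with edgeR 4.0.16 (TMM, filterByExpr, quasi-likelihood, section as block) in R 4.3.3, and an adjusted p under 0.05 was called. The 4 splits and the zone contrast were adjusted separately, each over all its genes. The alternatives were the Wald test and the size factors of DESeq2 1.42.0, no count filter, no spot filter, a stricter IZ limit (0.333 times), the outer spots of each split only, no cardiomyocyte bins, no block and each section left out. Scripts were tested on simulated data. Python 3.11.15 with NumPy 2.4.6 and SciPy 1.17.1 was used for the rest.

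Members and lists were chosen with earlier results of these data known. Named were all members, the genes most like each member (up to 5, and those of Mmp14 are not reported here), and per list of other family genes the called ones with the 3 highest and 3 lowest fold changes. A few further genes of those lists were named after their values were seen. Promoter windows came from a promoter table for GRCm38.p6, which had no entry for Mmp2, Mmp9, Mmp19 and Adam12.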

Additional observations from a re-analysis of the deposited data

Results flagged for a closer look

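Where the 3 dpi section and both sections of 5 dpi had opposite signs, the interaction term for the difference between the times called none. With at least 10 UMIs on each side in every section there were 5 such cases. The 3 dpi log2 ratio was 0.87 for Mmp9 on the macrophage split (33.6 against 18.5 CPM, with 18.9 against 22.3 and 7.67 against 16.7 at 5 dpi), and −0.38 for Mmp14 on the fibroblast split. On the neutrophil split it was 0.0056 for Mmp12, close to 0, and 0.45 for Mmp14, and among deep spots it was −0.19 for Adam12. With fewer UMIs there were also Mmp3 on the macrophage (0.03) and neutrophil (−0.37) splits and Mmp13 among deep spots (−0.36). Mmp2 had a log2 ratio of −0.0065 between IZ and RZ at 3 dpi and was higher in the IZ of both 5 dpi sections, a difference that was not tested.

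The interaction term called 3 members, with 1 heart at 3 dpi and after the values had been seen, so no p is given and the difference between the times stays a description. On the fibroblast split the log2 effect of Mmp12 was higher by 0.78 at 3 dpi (131 to 101 CPM at 3 dpi, 162 to 84.0 and 123 to 43.1 at 5 dpi). Among deep spots that of Mmp9 was higher by 1.75, with 44.0 CPM in deep against 11.5 in shallow spots at 3 dpi, but 18.7 against 22.0 and 16.2 against 7.45 in the replicates of 5 dpi, which differ in direction. The neutrophil list moved the same way in each section (183 to 350 CPM from shallow to deep spots at 3 dpi, 284 to 209 and 153 to 291 at 5 dpi), and its part was not tested. The effect of Mmp14 among deep spots was higher by 1.19, with 74.7 against 30.4 CPM at 3 dpi, 72.3 against 62.3 and 31.2 against 34.6.

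In the 623 unmarked spots of 5 dpi replicate 2, the members below had levels above the control, which is a description, since the members were chosen with their low control levels in view. The values were 246 CPM for Mmp2 (88.5 in the control), 8.08 for Mmp3 (3.21), 20.6 for Mmp9 (0.53) and 57.0 for Mmp12 (2.14). They were 63.7 for Mmp19 (1.87), 55.2 for Mmp14 (6.15), 106 for Adam8 (0.27) and 65.5 for Adam12 (0).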

How the results depend on the processing

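Counts of calls are given as members, then all genes. DESeq2's Wald test gave an adjusted p to fewer genes than edgeR, so its counts have a smaller base. These were 7121 against 10939 genes on the macrophage split, 4153 against 10940 on the fibroblast split and 7952 against 10915 on the neutrophil split. On the macrophage split (4 and 1456) they were 2 and 446 with DESeq2's Wald test, 0 and 0 without the section as a block, 2780 genes without cardiomyocyte bins, and 2 to 4 and 867 to 1099 with a section left out. On the fibroblast split (4 and 470) they were 146 genes with the Wald test, 0 and 0 without the block, 758 genes without bins, and 2 to 5 and 100 to 864 with a section left out. On the neutrophil split (2 and 91) they were 0 and 16 with the Wald test, 0 and 3 without the block, 145 genes without the count filter, 157 with the stricter IZ limit, 143 without the spot filter, 6 and 1458 without bins, and 0 to 2 and 57 to 121 with a section left out. For deep spots (0 and 10) they were 3 and 220 without the count filter, 0 genes without the block, 83 with the stricter limit, 40 without the spot filter, 42 with the outer spots only, 5 and 1196 without bins, 2 genes with another random order of ties (chosen after seeing the data), and 0 to 1 and 9 to 99 with a section left out. Between IZ and RZ all alternatives gave 24 to 34 calls among the listed genes, against 25. The cause of these shifts was not tested.

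Members that turned direction had not passed the threshold in the reported fit. Their log2 fold changes are given for that setting or, for sections left out, as the range. On the macrophage split Mmp3 (0.26) and Adam12 (0.23) turned without bins, and Mmp9 with the Wald test (−0.10), the stricter limit (−0.086), no spot filter (−0.015) and without 3 dpi (−0.45 to 0.27). On the fibroblast split Mmp3 turned with outer spots (−0.0084) and without 3 dpi (−0.24 to 0.46), and Mmp14 without 5 dpi replicate 1 (−0.19 to 0.29). On the neutrophil split Mmp12 turned, and passed, without bins (0.44) and Mmp14 without the spot filter (−0.023) and without 3 dpi (−0.080 to 0.16). Mmp3 turned there without 5 dpi replicate 1 (−0.064 to 0.58) and Adam12 without replicate 2 (−0.019 to 0.21). For deep spots Mmp3 turned without the block (0.029) and without 5 dpi replicate 1 (−0.43 to 0.90), as did Mmp13 (−0.11 to 0.48), and Mmp19 (−0.042 to 0.37) and Adam12 (−0.035 to 0.19) without replicate 2. The IZ exceeded the RZ in 25 to 27 of 27 pairs under all alternatives. Both sides of a split, and the zones, were paired within a section by the block. No paired analysis was possible because, between the times, replicate numbers only name hearts, and control and 3 dpi have 1 each. With 3 hearts, and few UMIs for Mmp3, Mmp9 and Mmp13, small differences were not detectable.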
